A study of Mus musculus with 12 samples.

Results

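A set of 10 genes of the bone morphogenetic protein (BMP) and activin receptor pathway was followed through subcutaneous white adipose tissue (scWAT) and brown adipose tissue (BAT) of wild-type (WT) and *Lr11*-/- mice. They were the type I receptors *Bmpr1a*, *Bmpr1b*, *Acvr1* and *Acvr1c*, the type II receptors *Bmpr2*, *Acvr2a* and *Acvr2b*, and the intracellular mediators *Smad1*, *Smad5* and *Smad4*. All probes whose transcript matched one of these 10 symbols were taken, which gave 17 of the 55681 probes on the array and 10 of its 20656 named genes. Of the 17 probes, 3 genes had 1 each and 7 genes had 2 each, and both probes of each such gene were named through the same RefSeq transcript. The main probe of a gene is the brighter of its tested ones. Testing required a probe to be well above background throughout the 3 arrays of some group. This held for 16 of the 17, among 32120 tested probes in all. All 10 genes had a tested probe, and for 9 of them the main probe was well above background on all 12 arrays. The exception was *Bmpr1b*.

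The mice were males on the C57Bl6/J strain, 12 weeks old, and the controls were littermates of the *Lr11*-/- mice. All 4 groups had high-fat diet with 60% of its calories from fat. The labels give both 4 weeks of it and feeding since weaning, so its length stays unsettled. The 4 groups were the scWAT of either genotype and the BAT of either genotype, with 3 one-colour arrays in each, and the labels do not say whether both depots came from the same mice or whether tissue was pooled. P-values therefore measure the spread between these samples.

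BMPs and activins bind a pair of type II receptors, which phosphorylate type I receptors. The type I receptors that serve BMPs (*Bmpr1a*, *Bmpr1b*, *Acvr1*) in turn phosphorylate Smad1 and Smad5, while *Acvr1c* (ALK7) acts through other Smads. Smad4 joins both branches and goes with them into the nucleus. In fat the pathway is known for its part in the commitment of precursors to white and brown adipocytes, and ALK7 is known as a receptor of mature adipocytes. LR11, the product of *Sorl1*, is a sorting receptor whose shed form was studied here for its effect on BMP signalling and heat production. The arrays measured mRNA only, not Smad phosphorylation.

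Values below are log2 intensities relative to the 75th percentile of the same array, so that 0 is that percentile. They are called log2 levels. Apart from statements on how bright a probe's signal was, and *Acvr1c* minus a marker mean, no probe's level is set against another's. Differences were tested with limma on all 12 arrays and adjusted over all 32120 tested probes, and a gene is said to have risen or fallen where the adjusted p was under 0.05. The targeted gene *Sorl1* lay between 0.11 and 1.21 on the 6 WT arrays and between -3.93 and -2.45 on the 6 *Lr11*-/- arrays. Per array, 32377 to 37002 spots rose well over background, and none was saturated. *Ucp1*, which marks brown adipocytes, was at 9.45 to 10.07 on the BAT arrays and at -4.63, -4.52 and 2.92 in WT scWAT. It was at 4.39, 9.75 and 10.05 in *Lr11*-/- scWAT, so that replicates 2 and 3 of that group lay within the range of BAT. A list of 8 skeletal muscle markers averaged 4.96 to 8.02 on 5 arrays (WT scWAT replicate 3, *Lr11*-/- scWAT replicate 1, WT BAT replicates 1 and 3, *Lr11*-/- BAT replicate 1) and -4.29 to -3.21 on the other 7. A list of 8 adipocyte markers averaged 3.00 in WT scWAT replicate 2 and 5.45 to 6.93 elsewhere. The replicate numbers are names only. Replicate 1 of each group belongs to a first array series and replicates 2 and 3 to a second.

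The starts of 3 of the genes are shown because *Smad1* and *Acvr1* are those that passed a test below, and *Acvr1c* is the neighbouring protein-coding gene of *Acvr1* on the chromosome with values that ran the other way in scWAT. Each line is the 250 bases before the most upstream RefSeq start, 5′ to 3′ on the gene's strand (minus for all 3), in build GRCm38.p6. Capitals mark GGGCGG on either strand, the GC box, overlapping matches included. The windows are chr8:79399429-79399678 for *Smad1*, chr2:58566829-58567078 for *Acvr1* and chr2:58357759-58358008 for *Acvr1c*.
Smad1: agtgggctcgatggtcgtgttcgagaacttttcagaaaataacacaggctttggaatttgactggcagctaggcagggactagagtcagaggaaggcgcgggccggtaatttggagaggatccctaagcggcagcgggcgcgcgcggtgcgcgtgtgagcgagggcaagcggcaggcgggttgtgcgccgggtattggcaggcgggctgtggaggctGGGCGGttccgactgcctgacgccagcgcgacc
Acvr1: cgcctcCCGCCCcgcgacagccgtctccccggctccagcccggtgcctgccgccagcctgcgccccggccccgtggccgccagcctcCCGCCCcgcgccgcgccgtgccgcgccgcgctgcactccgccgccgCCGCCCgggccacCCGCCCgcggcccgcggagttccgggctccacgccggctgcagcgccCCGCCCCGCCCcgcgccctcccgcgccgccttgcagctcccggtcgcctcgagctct
Acvr1c: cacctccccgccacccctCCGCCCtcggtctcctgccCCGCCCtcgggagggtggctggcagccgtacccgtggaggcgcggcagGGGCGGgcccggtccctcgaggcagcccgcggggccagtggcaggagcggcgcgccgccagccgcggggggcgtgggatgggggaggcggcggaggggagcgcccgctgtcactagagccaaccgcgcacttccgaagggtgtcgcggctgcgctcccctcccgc

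The *Acvr1* window was 85.6% G and C and held 6 GC boxes, the *Acvr1c* window 79.6% and 3, and the *Smad1* window 63.6% and 1, against a median of 52.4% over 32851 promoter windows of the same length. An entry was found for 9 of the 10 genes, with 14 windows in all because *Bmpr1b*, *Acvr1c* and *Smad5* have several starts. Some windows of *Smad5* and of *Bmpr1b* overlap, so the 14 are not separate units. GGGCGG occurred on either strand in 10 of the 14, compared with 32.7% of all windows. None of the 3 windows of *Bmpr1b* held it, and their G and C content was 46.8% to 56.4%. CAGAC, the short element that Smads can bind, was in 5 of the 14 against 42.2% of all windows. These matches describe letters only, and the arrays do not tell which start a probe's transcript used.

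*Smad1*, a mediator that BMP receptors phosphorylate, was the only one of the 10 genes that fell in *Lr11*-/- scWAT. The 3 WT scWAT arrays read -0.75, -0.19 and -0.55, a mean of -0.50 ± 0.29 (SD, n = 3). In *Lr11*-/- scWAT they were -1.63, -1.57 and -1.71, a mean of -1.64 ± 0.07 (SD, n = 3). The groups did not overlap, and the 3 knockout arrays lay close together. Of 11 lists of cell type markers, 4 separated the same groups as well. The 8 preadipocyte and fibroblast markers averaged 4.39 to 5.67 in WT and 2.49 to 4.01 in *Lr11*-/- scWAT, and macrophage markers (6 of 7 named on the array) 0.920 to 3.30 and 0.916 or less. The 9 brown adipocyte markers averaged -2.66 to 1.73 and 2.17 to 5.21, and the 6 B lymphocyte markers, 4 of them well above background in WT scWAT and 2 in the knockouts, -2.99 to -2.63 and -3.91 to -3.88. Not every brown adipocyte marker was higher in the knockouts. *Lhx8* was at -0.48 to 2.81 in WT and at -3.25 to 0.58 in *Lr11*-/- scWAT. *Zic1* was at -6.86, 0.76 and 0.46 in WT scWAT, where only replicate 1 lay below the knockouts. The part of these 4 marker lists in the *Smad1* result was not tested. The difference was -1.14 on the log2 scale (SE 0.226), or 2.20-fold lower, with a limma adjusted p of 0.035. It was -0.87 within the first array series and -1.28 within the second. Against this 1 call among 10 genes stood 5.27% of all tested probes called, and 1 of 10 genes without overlap against 20.4% of all probes. The 5.27% itself rests on single arrays, since 1692 probes called became 3 without *Lr11*-/- scWAT replicate 3 and 6372 without replicate 1. A share of 1 in 10 is near these backgrounds and says nothing about the 10 genes as a group.

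In BAT the same probe was at -1.13, -1.44 and -1.76 in WT and at -1.68, -1.36 and -1.41 in *Lr11*-/- mice. These groups overlapped, with a difference of -0.04 (95% interval -0.54 to 0.46, limma adjusted p = 1.0). The genotype difference in scWAT minus that in BAT was -1.10 (SE 0.319), which did not pass limma's test over all probes (adjusted p = 0.383, unadjusted p = 0.006). *Smad1* also fell from scWAT to BAT in WT mice, by 0.95 on the log2 scale (SE 0.226, limma adjusted p = 0.015), 1.93-fold lower, with no overlap between the groups. The difference was -0.37 in the first array series, whose scWAT and BAT arrays were on different slides, and -1.24 in the second, which was on 1 slide. Ordered by mean, *Lr11*-/- scWAT, *Lr11*-/- BAT and WT BAT followed one another in steps of 0.15 and 0.04 log2 units with overlapping ranges, and WT scWAT stood 0.95 above WT BAT without overlap.

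The second *Smad1* probe was dimmer and gave smaller differences. Its WT scWAT arrays read -2.57, -2.46 and -2.82, against -3.35, -2.83 and -3.0 for *Lr11*-/- scWAT, again without overlap but with the nearest arrays almost equal. Its difference of -0.44 (SE 0.264) did not pass limma's test (adjusted p = 0.304). For WT BAT minus WT scWAT it gave -0.13 (95% interval -0.72 to 0.45), so the depot difference of *Smad1* rests on the brighter probe. The call in scWAT was also near the threshold. Leaving out WT scWAT replicate 2 gave a limma adjusted p of 0.083, leaving out *Lr11*-/- scWAT replicate 2 or 3 gave 0.145 or 0.159, and it was 0.053 to 0.067 without any single BAT array and 0.056 without the 5 arrays that carried muscle markers. The depot call had an adjusted p of 0.054 and 0.052 without WT BAT replicates 2 and 3, and 0.137 without those 5 arrays.

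**Figure D1:**
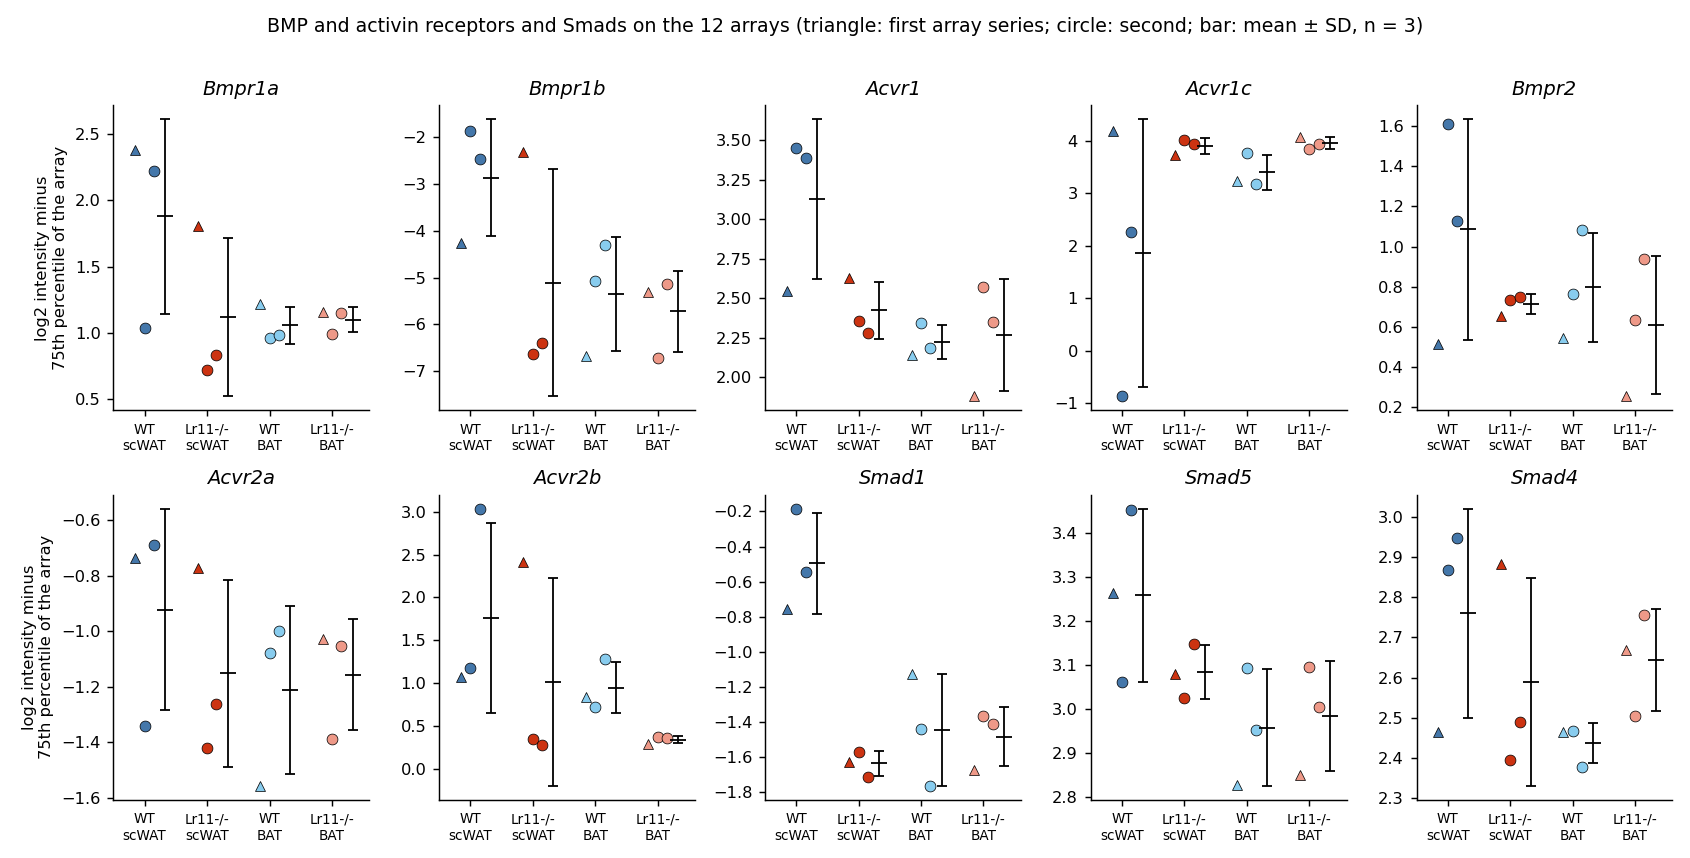
Log2 intensity minus the array's 75th percentile (vertical axis, a separate scale in each panel) of the main probe of each of the 10 genes on the 12 arrays, by group; triangles are the first array series, circles the second, and bars the mean ± SD (n = 3). Smad1 lay between -0.75 and -0.19 in WT scWAT and between -1.76 and -1.13 on the other 9 arrays, and Acvr1c reached down to -0.87 in 1 WT scWAT array.

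*Smad5*, which shares the role of *Smad1*, and *Smad4*, the partner of both branches, varied far less. The means of the 4 groups spanned 0.30 log2 units for *Smad5* and 0.32 for *Smad4*. *Smad5* was at 3.26 ± 0.20 in WT scWAT and 3.08 ± 0.06 in *Lr11*-/- scWAT (SD, n = 3 each). The difference of -0.17 had a 95% interval of -0.58 to 0.23, so a 2-fold change in either direction lies outside it. *Smad4* was at 2.76 ± 0.26 and 2.59 ± 0.26 in the same groups (SD, n = 3 each), a difference of -0.17 (95% interval -0.63 to 0.29). Neither passed limma's test (adjusted p = 0.564 and 0.625). WT BAT minus WT scWAT gave -0.30 and -0.32 by the main probes, which did not pass limma's test either (adjusted p = 0.239 and 0.266). The probes of *Smad5* disagreed in direction in both comparisons. Its dimmer probe lay 0.17 higher in *Lr11*-/- than in WT scWAT (95% interval -0.40 to 0.74). It lay 0.45 higher in WT BAT than in WT scWAT (limma adjusted p = 0.215).

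Among the type I receptors *Acvr1* (ALK2), which serves BMPs, was the only one that passed a test. Its log2 levels were 2.55, 3.45 and 3.39 in WT scWAT, 2.63, 2.36 and 2.28 in *Lr11*-/- scWAT, 2.14, 2.34 and 2.18 in WT BAT, and 1.88, 2.57 and 2.35 in *Lr11*-/- BAT. Replicates 2 and 3 of WT scWAT stood above all the others, and replicate 1 lay among them. *Acvr1* fell from scWAT to BAT in WT mice by 0.90 on the log2 scale (SE 0.277, limma adjusted p = 0.038), 1.87-fold lower. With slide as a block the call was lost (-0.88, adjusted p = 0.081), and the difference was -0.40 in the first array series and -1.15 in the second. The second *Acvr1* probe gave -0.63 for that comparison (SE 0.213, adjusted p = 0.053). For *Lr11*-/- minus WT scWAT the main probe gave -0.70 (SE 0.277) and the second probe -0.69 (SE 0.213), and neither passed limma's test (adjusted p = 0.135 and 0.076). The genotype difference was 0.08 in the first array series and -1.10 in the second, and it passed without WT scWAT replicate 1 (-0.99, limma adjusted p = 0.031). The depot call was lost without WT scWAT replicate 2 or 3 (limma adjusted p = 0.110 and 0.084), *Lr11*-/- scWAT replicate 2 (0.054), *Lr11*-/- BAT replicate 3 (0.057) or any WT BAT array (0.084 to 0.107). It was also lost without the 5 arrays with muscle markers, at -0.65 and an adjusted p of 0.364.

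With *Acvr1* and *Smad1*, 2 of the 10 genes fell from scWAT to BAT in WT mice, and none rose. Of all tested probes 24.8% were called in that comparison, and 3 of the 10 genes did not overlap between the groups, compared with 40.2% of probes. Besides *Acvr1* and *Smad1* this count holds *Bmpr1b*, which was well above background on none of the WT BAT arrays. *Bmpr1b* passed the filter on dim probes through WT scWAT alone, where it was high, so the filter favoured its lack of overlap. In number the 10 genes were thus near the background of a comparison in which many transcripts differed.

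*Acvr1c*, the adipocyte receptor ALK7, ran the other way in scWAT. Its log2 levels were 4.19, -0.87 and 2.26 in WT and 3.74, 4.02 and 3.94 in *Lr11*-/- scWAT. The WT arrays were widely scattered while the knockout arrays lay close together, and the groups overlapped. The difference of 2.04 (SE 0.927) did not pass limma's test (adjusted p = 0.182), and the second probe gave 1.87 (SE 0.949, adjusted p = 0.229). Within the first array series the difference was -0.45 and within the second 3.29. Single WT arrays decided its size, since it was 3.21 without WT scWAT replicate 1 (limma adjusted p = 0.025) and 0.68 without replicate 2 (adjusted p = 0.435). In BAT *Acvr1c* was at 3.24, 3.77 and 3.18 in WT and at 4.07, 3.84 and 3.95 in *Lr11*-/- mice. These groups did not overlap, but the difference of 0.55 did not pass limma's test (95% interval -1.50 to 2.60, adjusted p = 1.0).

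The levels of *Acvr1c* moved with the mean of the 8 adipocyte markers, all of which were well above background on every array. Not every marker did so. *Lep* was at -1.28 in WT scWAT replicate 2, but also at -1.09 in *Lr11*-/- scWAT replicate 1 and -1.01 in *Lr11*-/- BAT replicate 3. There *Acvr1c* was at 3.74 and 3.95. *Retn* was at 5.85 to 7.55 in *Lr11*-/- scWAT and at 3.21 to 5.19 in BAT, where *Acvr1c* was alike. The array with the lowest *Acvr1c*, WT scWAT replicate 2, also had the lowest marker mean (3.00) and the lowest *Adipoq* (3.84 against 6.61 to 8.55). The marker mean ranged from 3.00 to 6.93 in WT scWAT, 5.91 to 6.58 in *Lr11*-/- scWAT, 5.69 to 6.13 in WT BAT and 6.04 to 6.25 in *Lr11*-/- BAT. *Acvr1c* minus that mean, a measure chosen after the values were seen, was -2.74, -3.87 and -3.20 in the WT scWAT arrays against -2.17, -2.29 and -2.64 in the knockouts. The BAT values were -2.89, -2.35 and -2.51 for WT, and for knockouts -2.07, -2.41 and -2.09. On this measure the scWAT groups did not overlap, and the BAT groups did. The part of adipocyte content in the *Acvr1c* result was not tested, and in bulk tissue fewer cells of a type and less RNA per cell cannot be told apart. The same array had the highest mean of 8 preadipocyte and fibroblast markers (5.67, against 4.39 and 4.70 in the other WT scWAT arrays, 2.49 to 4.01 in *Lr11*-/- scWAT and 2.27 to 2.86 in BAT). It also had the highest *Smad1* and *Acvr1*. How far that marker shift enters those results was not tested.

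**Figure D2:**
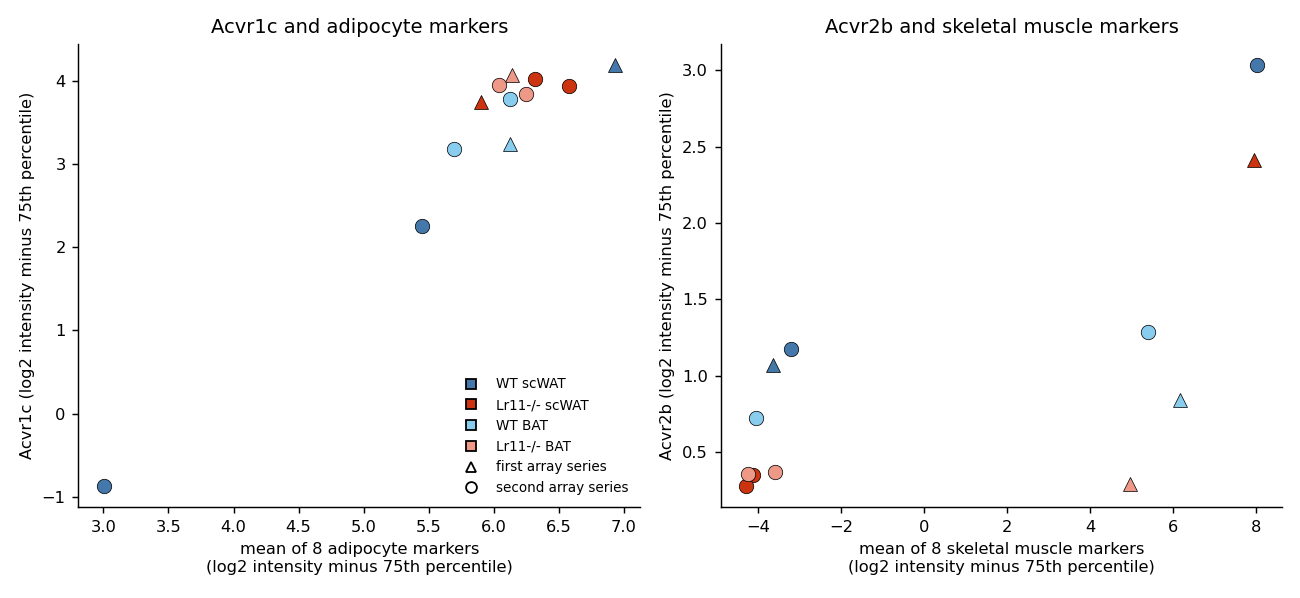
Left, Acvr1c against the mean of 8 adipocyte markers; right, Acvr2b against the mean of 8 skeletal muscle markers, each point an array and both axes in log2 intensity minus the array's 75th percentile. The WT scWAT array with an adipocyte mean of 3.00 had Acvr1c at -0.87, and the arrays with muscle means of 8.02 and 7.96 had Acvr2b at 3.03 and 2.41.

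*Bmpr1b*, a type I receptor of BMPs, had the weakest signal of the 10. Its group means spanned 2.85 log2 units as measured, against 2.09 for *Acvr1c*. They spanned 1.70 with dim readings raised to the lowest signal well above background on their array where they lay under it. It was well above background on all 3 WT scWAT arrays, on 1 of 3 in *Lr11*-/- scWAT and on none of the 6 BAT arrays. Its log2 levels were -4.27, -1.88 and -2.46 in WT scWAT, against -2.32, -6.62 and -6.40 in *Lr11*-/- scWAT. Replicate 1 of the knockouts was thus as bright as WT, and replicates 2 and 3 were at the level of BAT, where readings ran from -6.71 to -4.30. The scWAT difference of -2.24 (SE 1.11) did not pass limma's test (adjusted p = 0.218). It was 1.95 within the first array series. Without *Lr11*-/- scWAT replicate 1 both knockout arrays left were not well above background, so WT was at least 3.13-fold higher (limma adjusted p = 0.016, group means -2.87 and -6.51), and at least 5.08-fold within the second series (adjusted p = 0.007, group means -2.17 and -6.51). *Bmpr1b* passed the filter on dim probes through WT scWAT alone, the group where it was high, and a gene that entered in this way had to differ. The left-out array was also the one with the highest mean of 7 epithelial markers (1.69, against -4.78 to -1.91 on the other 11), and the part of those cells in this value was not tested. For WT mice scWAT was at least 3.25-fold above BAT (limma adjusted p = 0.122, group means -2.87 and -5.35). For this bound each BAT array entered with its reading or with its lowest signal well above background, whichever was higher. The second probe was well above background on 2 of 12 arrays and was not tested.

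*Bmpr1a*, a type I receptor of BMPs found in many cell types, was at 2.38, 1.04 and 2.22 in WT scWAT and at 1.81, 0.72 and 0.83 in *Lr11*-/- scWAT. All 6 BAT arrays lay between 0.96 and 1.22. Differences were -0.76 for genotype in scWAT (SE 0.374, limma adjusted p = 0.216) and -0.82 for WT BAT against WT scWAT (SE 0.374, adjusted p = 0.126). The scWAT groups overlapped, with 1 WT array at the level of the knockouts and 1 knockout array near WT. With arrays weighted by their consistency the genotype difference passed (-1.23, adjusted p = 0.031), but there *Lr11*-/- scWAT replicate 2 had a weight of 8.25 and replicate 1, the knockout array near WT, one of 0.197, so the knockout mean was nearly that of 1 array. Without WT scWAT replicate 2 the depot difference passed (-1.25, adjusted p = 0.027).

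The type II receptors did not pass limma's test in any comparison. *Bmpr2*, the receptor particular to BMPs, was at 1.09 ± 0.55 in WT scWAT and 0.71 ± 0.05 in *Lr11*-/- scWAT (SD, n = 3 each), a difference of -0.37 (95% interval -1.02 to 0.28). In WT BAT it was 0.80 ± 0.27 and in *Lr11*-/- BAT 0.61 ± 0.34 (SD, n = 3 each). *Acvr2a*, which binds activins and BMPs, stayed within 0.29 log2 units over the 4 group means, with a scWAT difference of -0.23 (95% interval -0.82 to 0.36). Its second, dimmer probe gave -0.33 (SE 0.301).

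*Acvr2b*, the close relative of *Acvr2a*, was at 1.07, 1.17 and 3.03 in WT scWAT, 2.41, 0.36 and 0.28 in *Lr11*-/- scWAT, 0.84, 0.72 and 1.29 in WT BAT and 0.29, 0.37 and 0.36 in *Lr11*-/- BAT. Its 2 highest arrays were the 2 scWAT arrays with muscle markers, WT replicate 3 and *Lr11*-/- replicate 1. The same arrays also had the highest means of the 7 epithelial markers (-1.91 and 1.69, against -4.78 to -3.51 on the other 10) and of 6 Schwann cell markers (0.85 and 0.61, against -1.58 to 0.53). They had muscle means of 8.02 and 7.96 with all 8 markers well above background, while the 3 BAT arrays with muscle means of 4.96 to 6.16 had *Acvr2b* at 0.29 to 1.29. Among the 4 remaining scWAT arrays *Acvr2b* was at 1.07 and 1.17 in WT and at 0.36 and 0.28 in knockouts. The part of muscle, epithelium and nerve in these values was not tested. The scWAT difference was -0.75 (SE 0.609, limma adjusted p = 0.455), 1.34 in the first array series and -1.79 in the second. In BAT the knockout arrays all lay below the WT arrays, by -0.61 on average (SE 0.609, adjusted p = 1.0), and by -0.55 and -0.64 within the series.

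Of all 10 genes, 9 had a fold change below 0 for genotype in scWAT with a median of -0.54, where the median over all tested probes was 0.04 and 47.5% of them lay below 0. For the WT depots 9 were again below 0, with a median of -0.57 against 0.07. Both comparisons use the same WT scWAT arrays, so their likeness is no separate result. The array series differed for genotype in scWAT. In the first series *Bmpr1b* (1.95), *Acvr2b* (1.34), *Smad4* (0.42), *Bmpr2* (0.14) and *Acvr1* (0.08) lay above 0. The other genes, *Acvr1c* (-0.45) among them, lay between -0.87 and -0.04 there. In the second series all but *Acvr1c* (3.29) lay below 0. In BAT none of the 10 was called between genotypes, against 0.0187% of all tested probes, which is 6 probes. The differences lay between -0.61 and 0.55 with a median of 0.03, and none of the 10 had an unadjusted p under 0.05 by limma. Groups did not overlap for 3 of them (*Acvr1c*, *Acvr2b* and *Smad4*, the last 0.21 higher in knockouts with an adjusted p of 1.0), compared with 12.0% of probes. Between the *Lr11*-/- depots none of the 10 was called, against 0.0405% of probes, none had an unadjusted p under 0.05, and none was without overlap, against 23.2%. Those differences ran from -0.67 to 0.15. For the genotype difference in scWAT minus that in BAT 0 of the 10 passed limma's test, as did 0% of all probes, of which 3537 had an unadjusted p under 0.05. Among the 10 genes *Smad1* alone had one.

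**Figure D3:**
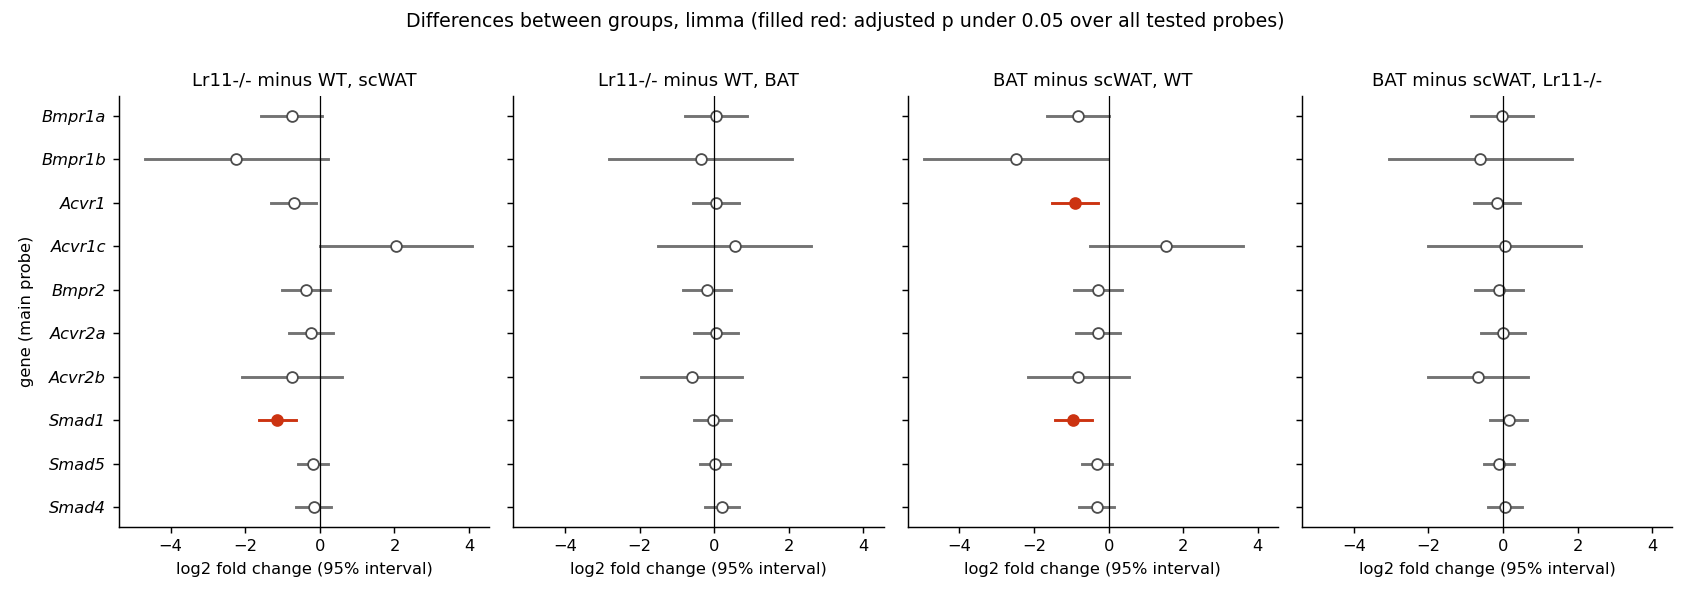
Log2 fold changes of the main probes with their 95% intervals for the 4 comparisons of 2 groups; filled red points have a limma adjusted p under 0.05 over all tested probes. Smad1 in the scWAT comparison (-1.14) and Smad1 and Acvr1 in the WT depot comparison (-0.95 and -0.90) are the filled points.

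**Figure D4:**
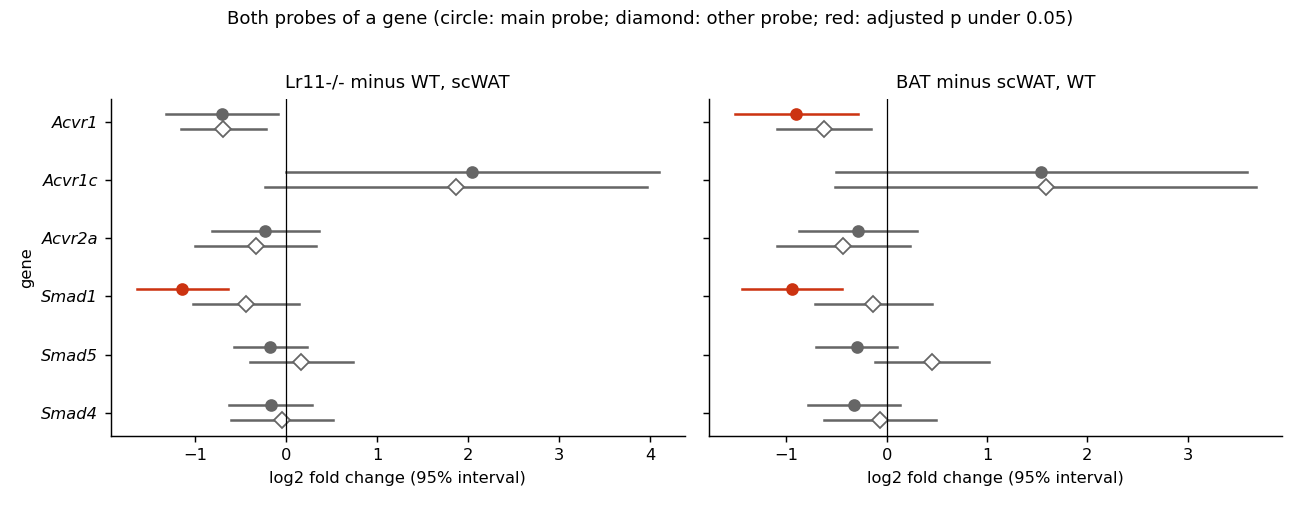
Log2 fold changes with 95% intervals of both probes of the 6 genes with 2 tested probes, for genotype in scWAT and for depot in WT mice; circles are main probes, diamonds the other probes. The probes of Acvr1 and Acvr1c gave like values, those of Smad1 differed in size (-1.14 and -0.44 in scWAT) and those of Smad5 in direction.

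The scaling of the arrays shifted all genes. The median difference of all tested probes in scWAT was 0.04 as reported, 0.15 with each array centred on its median and -0.20 without scaling, and for the WT depots 0.07, 0.20 and -0.25. Under each of these scalings the main probes of the 10 genes kept the directions given here for scWAT and for the WT depots.

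The other genes of the pathway were counted from lists of receptors, Smads, regulators, ligands, antagonists and targets. Their counts are to be read against the 5.27% of all tested probes called for genotype in scWAT and the 24.8% called between WT depots. Genes of the lists were not recomputed under other settings, so how far their calls hold there is not known. Over all probes the 1692 scWAT calls became 28 or 3 without *Lr11*-/- scWAT replicate 2 or 3. They became 6372 without replicate 1, and 0 with only the groups compared in the fit. None of the 3 other type I receptors (*Acvr1b*, *Acvrl1*, *Tgfbr1*) passed limma's test in any comparison, with 1 at an unadjusted p under 0.05 in scWAT. *Acvr1b* (ALK4), the main activin receptor of type I, showed their largest measured scWAT difference, at -1.72 (SE 0.743, limma adjusted p = 0.163). It was 0.50 within the first array series and -2.84 within the second. *Acvr1b* was well above background on 3 of 3 WT scWAT arrays, 1 of 3 in *Lr11*-/- scWAT and 2 of 3 in either BAT group. It thus passed the filter through WT scWAT alone, where it was high, so the size of its difference is uncertain. Of 8 tested type II receptors and co-receptors 1 rose in *Lr11*-/- scWAT and none fell. This was *Rgma*, a BMP co-receptor anchored in the membrane. WT scWAT arrays read 0.84, -0.44 and 1.11 and *Lr11*-/- scWAT arrays 2.28, 4.38 and 4.86, and *Rgma* lay between 4.21 and 4.66 on all 6 BAT arrays. Its difference was 3.34 in scWAT (SE 0.595, limma adjusted p = 0.030) and 3.98 between WT depots (SE 0.595, adjusted p = 0.004). The scWAT difference was 1.44 within the first array series and 4.29 within the second. Replicate 1 of the knockouts lay between WT scWAT and BAT, and replicates 2 and 3 were near or above the BAT arrays.

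Of 4 other Smads tested 1 fell in *Lr11*-/- scWAT. *Smad7*, an inhibitory Smad that blocks type I receptors, was at 0.58, -0.08 and 0.27 in WT and at -0.64, -1.55 and -1.13 in *Lr11*-/- scWAT, a difference of -1.37 (SE 0.282, limma adjusted p = 0.038). In BAT its levels were 0.15, 0.02 and -0.49 in WT and 0.13, 0.40 and 0.29 in knockouts, so for *Smad7* the *Lr11*-/- scWAT arrays lay below all the other 9. Genotype by depot gave -1.75 (SE 0.399), which did not pass over all probes (adjusted p = 0.322). *Smad6*, the other inhibitory Smad, had a difference of -0.92 between *Lr11*-/- and WT BAT without overlap (SE 0.411, limma adjusted p = 1.0). All 16 Smad regulators, among them ubiquitin ligases, phosphatases and nuclear partners, were tested. Of these 0 passed limma's test in any of the 5 comparisons, with 2 at an unadjusted p under 0.05 in scWAT. Their largest scWAT value was 0.92 for *Nedd4l*, a ubiquitin ligase (SE 0.481, limma adjusted p = 0.242).

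Among 25 tested genes of the ligand list 2 rose in *Lr11*-/- scWAT and none fell, 8% of the list. The list holds *Bmp1*, which despite its name is a metalloprotease and no ligand. *Bmp8b*, a BMP known from brown fat, had a measured difference of 4.03 (SE 0.969, limma adjusted p = 0.045). It was 1.70 within the first array series and 5.20 within the second. Log2 levels were -7.01, -6.43 and -6.54 in WT and -5.32, -0.29 and -2.29 in *Lr11*-/- scWAT. Well above background were 0 of 3 WT arrays and 2 of 3 knockout arrays (not replicate 1), so the size of this difference is uncertain. *Inhbe*, an inhibin subunit, rose by 0.84 (SE 0.215, adjusted p = 0.0499). In the WT depots 9 genes of the list were called, 36% against 24.8% of all probes. Of these 4 were higher and 5 lower in BAT, the latter with *Bmp1* (-2.14) among them, and the ligands *Bmp3* (-2.99) and *Inhbb* (-2.21) differed most. Of 14 tested antagonists 1 fell in *Lr11*-/- scWAT, namely *Fstl3*, which binds activins (-1.78, SE 0.326, limma adjusted p = 0.030). Between WT depots 8 of the 14 antagonists were called, 57.1% against 24.8% of all probes, 1 higher and 7 lower in BAT, with *Fstl3* (-3.01), *Nbl1* (-2.71) and *Fstl1* (-2.59) the largest. The 8 preadipocyte and fibroblast markers averaged 4.39 to 5.67 in WT scWAT and 2.44 to 2.73 in WT BAT. Their part in these depot counts was not tested.

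Of 11 tested targets of BMP and Smad signalling 1 fell in *Lr11*-/- scWAT, *Smad7*, and none rose. *Id1*, a textbook BMP target, was the 1 target called between WT depots and rose from scWAT to BAT (1.34, SE 0.40, limma adjusted p = 0.034). In the genotype comparison of BAT 0 genes of these lists passed limma's test and 1, *Smad6*, had an unadjusted p under 0.05. Between the *Lr11*-/- depots 0 passed, with at most 4 genes of a list at an unadjusted p under 0.05. The median of a list in scWAT ran from -0.93 for the 3 type I receptors to 0.16 for the Smad regulators, beside 0.04 over all tested probes.

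**Figure D5:**
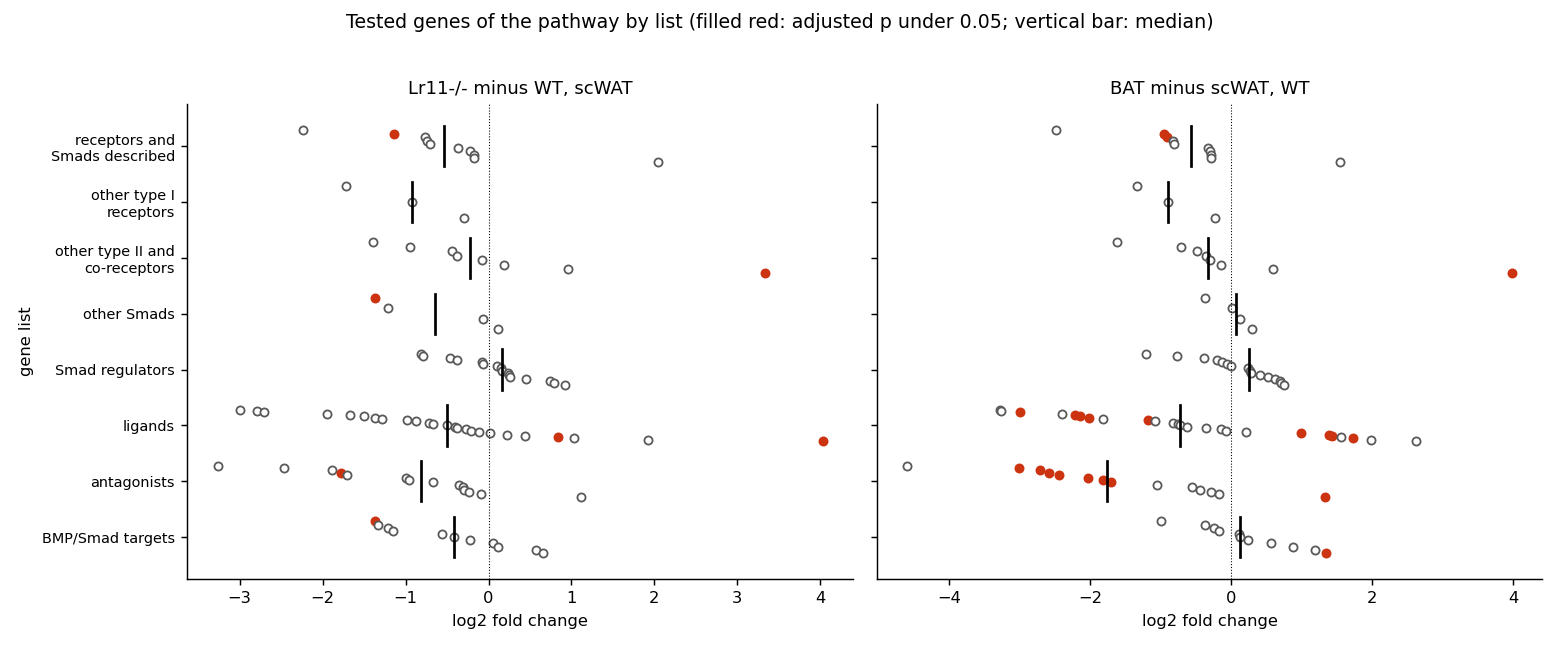
Log2 fold changes of the tested genes of each pathway list for genotype in scWAT (left) and depot in WT mice (right); each point is a gene's main probe, filled red where the limma adjusted p was under 0.05, and the vertical bar is the list's median. In scWAT the filled points are single genes of a list, such as Rgma at 3.34 and Smad7 at -1.37, while 8 of 14 antagonists are filled in the WT depot comparison.

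The genes most like *Bmpr1b* over the 12 arrays were *Larp6*, *Gadd45b*, *E330013P04Rik*, *Igsf3* and *Frem1*, by the root mean square difference of centred log2 levels among 14698 tested named genes. That difference was 0.70 to 0.84 log2 units, and 2 of these genes (*E330013P04Rik* and *Frem1*) were well above background on only 4 arrays. The same measure was then taken for 4 genes chosen after their values were seen. For *Acvr1c* it gave *Pcx*, *Gstz1*, *Adig*, *Prxl2a* and *Amy2a5* at 0.24 to 0.35, all of them lowest in WT scWAT replicate 2. *Acvr2b* was most like *Pcnt*, *Thap3*, *Rcsd1*, *Ktn1* and *Camk2g* (0.22 to 0.26), each of which was highest on the 2 scWAT arrays with muscle markers. These shared lowest and highest arrays follow from choosing genes by this measure and are no separate result. *Smad1* was most like *Stx1a*, *Pear1*, *Plp2*, *Apbb2* and *2310022B05Rik* (0.15 to 0.21). *Acvr1* was most like *Dnajc18*, *Sdad1*, *Fam172a*, *Agap1* and *Ccdc186* (0.15 to 0.18).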

How the data were processed

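RNA of scWAT and BAT was labelled with Cy3 and hybridised to 12 one-colour Agilent 8x60K mouse arrays, annotated on mm9. The authors deposited intensity values from Agilent Feature Extraction (10.10 in the submitters' processing notes, 10.10.1.1 in the file headers), background-subtracted and not scaled between arrays. The series' deposited intensity table holds the same values as the scanner files (largest difference 0). Deposited flags mark spots well above background, saturated or outlying; the 128 to 181 outlier spots per array were left out.

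Log2 intensities were averaged over spots of a probe, and the 75th percentile of the array's intensities (373.7 to 632.4) was subtracted. Of 28685 probes with a RefSeq accession, 27229 received a symbol from RefSeq GRCm38.p6. Linear models with 4 group means were fitted with limma 3.58.1 in R 4.3.3 with eBayes and Benjamini-Hochberg adjustment over 32120 probes, and checked on simulated data. With 3 arrays per group their number limits the precision. Groups came from the source labels. Spans of marker lists are means of log2 levels. The 10 genes and all lists were chosen with earlier results of these data known. Genes named beyond the 10 were, for each list and comparison, at most 3 called genes with the largest fold change, or the largest if none was called, plus *Sorl1*, *Ucp1*, *Adipoq* and the 5 genes most like *Bmpr1b*, the gene with the widest measured range. Outside this rule, *Acvrl1* and *Tgfbr1* are named to complete a list of 3, and *Zic1*, *Lhx8*, *Lep* and *Retn* as markers unlike the rest of their lists. The genes most like *Acvr1c*, *Acvr2b*, *Smad1* and *Acvr1* were added after the values were seen. Symbols were matched through current names (Hfe2 to *Hjv*, Emr1 to *Adgre1*). Alternatives covered scaling, background, filters, blocks for array series and slide, array weights, averaging over probes and leaving out arrays. Promoter sequences are from RefSeq, GRCm38.p6. Array probe sequences were not used here, and 1 gene of the target list is not reported here.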

Additional observations from a re-analysis of the deposited data

How the results depend on the processing

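The 5 comparisons were repeated under 27 other settings, 12 of which left out 1 array each, and 1 of which, leaving out the 5 arrays with muscle markers, was chosen after seeing the data. The number of the 10 genes called for genotype in scWAT was 1 as reported. It was 0 with no filter on dim probes, 0 with only the groups compared in the fit (where limma called 0 of all probes and 4658 had an unadjusted p under 0.05), 0 with the mean over all probes of a gene, 0 without the 5 arrays with muscle markers, 2 with array weights, 4 in the second array series alone (*Bmpr1b*, *Acvr1*, *Acvr1c*, *Smad1*), and 0 to 3 when 1 array was left out. The 2 genes called between WT depots became 1 with median scaling, no filter, slide as a block (*Acvr1* lost) or the mean over all probes, 3 with normexp background correction (*Smad5* added) or in the second series alone (*Bmpr1b* added), 0 with array weights, only the groups compared or without the 5 arrays, and 0 to 3 with 1 array left out. In the other 3 comparisons 0 of the 10 genes were called in every setting run. Smad1 in scWAT stayed negative throughout, between -1.39 and -0.79, with limma adjusted p from 0.014 to 0.315. Of all tested probes in scWAT 1692 were called as reported, 151 with no filter, 911 with slide as a block, 838 without scaling, 1058 with median scaling, 4040 with array weights and 7259 in the second series alone. Without WT scWAT replicates 1, 2 and 3 in turn there were 4409, 222 and 4617, without *Lr11*-/- scWAT replicates 1, 2 and 3 there were 6372, 28 and 3, and without any 1 BAT array 145 to 175. Between WT depots 7967 became 3990 with slide as a block, 5299 with array weights and 3920 with only the groups compared, and 3276 to 10230 with 1 array left out (5285 without WT scWAT replicate 2, 3885 and 3276 without WT BAT replicates 1 and 2). Values by gene were recomputed for all 10 genes in scWAT and between WT depots, and for *Smad1*, *Acvr1c*, *Acvr2b* and *Smad4* in BAT (the first 2 also for genotype by depot). Of these, 2 differences changed direction, neither called as reported: Smad5 between WT depots (-0.30) was 0.074 with the mean over all probes, and Smad1 for genotype in BAT was 0.0024 with normexp background correction, 0.22 in the second series alone, 0.054 without the 5 arrays and -0.20 to 0.12 with 1 array left out. Without the first series no group has more than 2 arrays. The cause of these changes was not tested. Arrays limit the reading of dim probes: *Bmpr1b* lay at background on 8 of 12 arrays. No paired analysis was possible because the labels carry no replicate numbers.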
